A study of Homo sapiens with 6 samples.

Results

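The genes of MHC class I antigen presentation were examined in H1155, a neuroendocrine large cell lung cancer line, in wildtype cells and in cells labelled as knockouts of GFI1, a zinc-finger transcriptional repressor of blood cell development. The members were 9 genes taken by symbol from the count table: *HLA-B*, *HLA-C*, *HLA-E*, *B2M*, *TAP1*, *TAP2*, *TAPBP*, *PSMB8*, and *PSMB9*. All 9 were found among the 58735 genes of the table, and all 9 passed the filter on low counts that left 17514 genes for testing. The study compared 3 libraries of wildtype H1155 cells (WT) with 3 of H1155 cells labelled GFI1-KO, to find genes whose RNA depends on GFI1. Both groups were grown in DMEM with 10% FBS and were untreated. According to the study's methods, the KO cells were monoclonal GFP+ clones sorted after CRISPR/Cas9 editing with paired guides to the *GFI1* promoter. Since the labels do not say how many clones were sequenced, a property of a clone and an effect of the deletion cannot be told apart here. The labels also do not say that the libraries of a group came from separate cultures, so p-values measure only the spread between these libraries. *GFI1*, the edited gene, had 153, 106, and 125 counts in WT and 174, 188, and 170 in GFI1-KO, for a fitted log2 difference of 0.31 (SE 0.12, edgeR adjusted p = 0.0273), which was not called with DESeq2 (adjusted p = 0.072) or with offsets for GC content and length (0.17). Since KO libraries did not hold less *GFI1* RNA than WT libraries, every direction given here rests on the labels. The names GFI1-KO and KO stand for the libraries with that label.

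MHC class I molecules show fragments of a cell's own proteins to CD8 T cells. Proteasomes cut the proteins, the TAP1-TAP2 transporter moves the peptides into the endoplasmic reticulum, and tapasin (*TAPBP*) holds the empty class I molecule next to the transporter until a peptide fits. The molecule itself is a polymorphic heavy chain, such as HLA-B or HLA-C, bound to the invariant light chain beta-2-microglobulin (*B2M*), while HLA-E is a nearly invariant heavy chain read mainly by NK cell receptors. *PSMB8* and *PSMB9* encode interferon-inducible catalytic subunits that replace constitutive ones in the immunoproteasome. Neuroendocrine lung cancers are known for low class I expression, and the promoters of these genes are known targets of NF-κB, interferon regulatory factors, and the SXY-binding complex that recruits NLRC5.

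Promoter windows from RefSeq (GRCh38.p14), from 250 bases before to 50 bases after the start of transcription, were matched for 8 of the 9 genes, 2 of which, *TAP1* and *PSMB8*, had 2 windows each. They were searched on both strands for the interferon-stimulated response element core TTTCNNTTTC, the CRE half-site TGACG, which is part of the X box of class I promoters, and CCAAT, the core of the Y box. In the sequences, capitals mark matches to these 3 motifs, which may overlap each other. The *HLA-B* and *HLA-C* windows are shown because they are close relatives with matches to the X and Y box letters. The *B2M* window is shown because it lies on another chromosome. *TAP1* and *PSMB9* are shown because they are transcribed away from each other from starts 488 bases apart, and *TAP2* as the transporter subunit gene that did not rise.
HLA-B, chr6:31357130-31357429, minus strand: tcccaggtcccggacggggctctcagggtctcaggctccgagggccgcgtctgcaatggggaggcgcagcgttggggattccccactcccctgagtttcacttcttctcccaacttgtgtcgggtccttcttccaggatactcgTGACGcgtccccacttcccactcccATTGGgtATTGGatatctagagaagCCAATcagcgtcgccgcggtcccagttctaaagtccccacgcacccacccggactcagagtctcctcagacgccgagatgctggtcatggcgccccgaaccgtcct
HLA-C, chr6:31272043-31272342, minus strand: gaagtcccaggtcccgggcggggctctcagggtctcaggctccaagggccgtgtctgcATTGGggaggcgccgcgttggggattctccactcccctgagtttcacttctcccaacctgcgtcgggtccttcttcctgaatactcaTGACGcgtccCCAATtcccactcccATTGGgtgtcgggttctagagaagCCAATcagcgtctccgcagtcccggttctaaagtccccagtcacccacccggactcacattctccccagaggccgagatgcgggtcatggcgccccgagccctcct
B2M, chr15:44711267-44711566, plus strand: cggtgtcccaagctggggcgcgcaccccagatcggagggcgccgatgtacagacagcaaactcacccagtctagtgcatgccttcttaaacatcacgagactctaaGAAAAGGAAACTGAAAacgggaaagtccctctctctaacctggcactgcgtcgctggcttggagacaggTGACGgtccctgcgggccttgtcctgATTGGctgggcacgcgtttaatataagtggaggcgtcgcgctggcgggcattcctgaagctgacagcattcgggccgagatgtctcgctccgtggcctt
TAP1, chr6:32853655-32853954, minus strand: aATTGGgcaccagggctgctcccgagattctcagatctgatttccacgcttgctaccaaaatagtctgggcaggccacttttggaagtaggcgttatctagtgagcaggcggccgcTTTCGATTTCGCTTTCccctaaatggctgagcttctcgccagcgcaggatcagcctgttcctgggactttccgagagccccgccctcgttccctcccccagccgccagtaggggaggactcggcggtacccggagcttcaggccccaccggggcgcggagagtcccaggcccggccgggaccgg
PSMB9, chr6:32853942-32854241, plus strand: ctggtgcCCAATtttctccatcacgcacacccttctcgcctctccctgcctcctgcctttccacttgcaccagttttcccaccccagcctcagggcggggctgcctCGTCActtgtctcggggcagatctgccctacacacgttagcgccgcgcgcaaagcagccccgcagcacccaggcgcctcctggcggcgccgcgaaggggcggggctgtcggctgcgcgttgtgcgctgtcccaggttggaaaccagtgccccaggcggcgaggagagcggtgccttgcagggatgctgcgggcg
TAP2, chr6:32838690-32838989, minus strand: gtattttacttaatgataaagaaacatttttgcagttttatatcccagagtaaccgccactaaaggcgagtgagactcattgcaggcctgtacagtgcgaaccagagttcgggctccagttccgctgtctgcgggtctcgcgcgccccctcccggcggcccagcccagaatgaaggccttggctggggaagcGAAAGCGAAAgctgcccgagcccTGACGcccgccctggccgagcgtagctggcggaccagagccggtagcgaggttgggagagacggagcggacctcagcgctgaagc

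The *HLA-B* and *HLA-C* windows were identical at 269 of 296 aligned bases (90.9%). The interferon-stimulated response element core was found for 5 of the 8 genes, namely *B2M*, *TAP1*, *TAP2*, *TAPBP*, and *PSMB8*, and in 3.57% of all 35116 RefSeq promoter windows. In *B2M*, *TAP1*, and *TAPBP* it occurred as 2 matches that overlapped each other. Those of *TAP1* lie between the *TAP1* and *PSMB9* starts but outside the *PSMB9* window. TGACG was found for 6 of the 8 genes and in 24.6% of all windows, and CCAAT for 5 of the 8 and in 34.6% of all windows. The CCAAT matches of *TAP1* and *PSMB9* are a single site in the 13 bases that their windows share. Matches were counted per gene over its windows, and the other *TAP1* window held none of the motifs searched. The NF-κB site GGGANNNNCC, not capitalized in the sequences, was found for 5 of the 8 genes and in 25.6% of all windows. The GFI1 core AATCAC was not found in a window of these 8 genes and was found in 10.2% of all windows. Only exact matches to these letters were counted, so a window without a match may still hold a variant of the element. Elements outside the windows were not searched. The matches describe letters in these windows and say nothing of binding in these cells.

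Of the 9 genes, 7 were higher in GFI1-KO libraries than in WT libraries and 2, *B2M* and *TAP2*, were lower (edgeR quasi-likelihood test, adjusted p at most 0.05). Among all tested genes, 36.5% were called higher and 35.9% lower. The median log2 fold change of the 9 genes was 0.57, and that of all tested genes was 0.00. For each of the 9 genes the groups did not overlap in normalized counts (counts scaled to a common library size), as for 74.5% of all tested genes. Offsets were also used that corrected each library for GC content and length (the GC and length correction). With them, 7 genes were higher, none was lower, and 2 were neither, against 32.5% higher and 28.3% lower among all tested genes. These 7 were not the same genes as before, since *B2M* changed from lower to higher and *HLA-C* was no longer called. The 2 that were neither were *HLA-C* and *TAP2*. The corrected medians were 0.22 for the 9 genes and 0.02 for all tested genes.

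**Figure D1:**
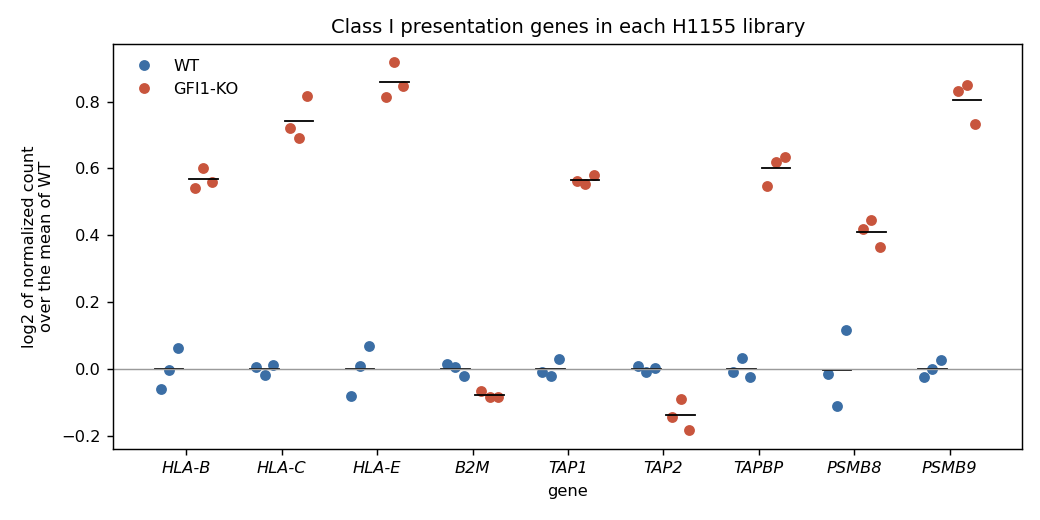
Normalized counts of the 9 class I presentation genes in each H1155 library, as log2 over the mean of the WT libraries (y axis), with 3 WT and 3 GFI1-KO libraries per gene (points) and group means (lines). The GFI1-KO points lie above the WT points for 7 genes and below them for *B2M* and *TAP2*; with the GC and length correction *B2M* changed to a rise of 0.42, and *TAP2* was not called.

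Both classical heavy chain genes among the 9 were higher in GFI1-KO, *HLA-B* by 1.48-fold and *HLA-C* by 1.67-fold, the latter a call that did not survive the GC and length correction. *HLA-B* (ENSG00000234745, chr6:31269491-31357188, minus strand) had 13427, 12909, and 14274 counts in the WT libraries and 21878, 22969, and 22458 in the GFI1-KO libraries. All 3 KO libraries lay above all 3 WT libraries, and the mean normalized count went from 14339 ± 619 to 21251 ± 470 (SD, n = 3). The log2 fold change was 0.57 (SE 0.03, edgeR adjusted p = 3.6e-14). With the GC and length correction it was 0.36 (edgeR adjusted p = 7.4e-10). The deposited span of *HLA-B* runs over *HLA-C* on the same strand, and 30.5% of its 50-base transcript words are shared with other genes, so its count is uncertain.

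*HLA-C* (ENSG00000204525, chr6:31268749-31272130, minus strand) had 7593, 6906, and 7428 counts in WT and 13385, 13192, and 14478 in GFI1-KO. The groups were well apart, at normalized counts of 7738 ± 82.0 and 12961 ± 590 (SD, n = 3). The log2 fold change was 0.74 (SE 0.03, edgeR adjusted p = 2.0e-16). This call was lost with the GC and length correction, which gave 0.05 (edgeR adjusted p = 0.216), and at 62.7% *HLA-C* had the highest GC content of the 9 genes. Because heavy chains share sequence, all class I heavy chain genes and pseudogenes were also summed to 1 feature, whose log2 fold change was 0.63 (SE 0.03).

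*HLA-E* (ENSG00000204592, chr6:30489467-30494205, plus strand), which presents leader peptides of other heavy chains, had the highest fold change of the 9 genes without the correction. Its counts were 1774, 1746, and 1918 in WT and 3544, 3828, and 3667 in GFI1-KO, without overlap. The log2 fold change was 0.86 (SE 0.04, edgeR adjusted p = 3.4e-16), or 1.81-fold, and 0.49 with the GC and length correction (edgeR adjusted p = 6.6e-11). Of all tested genes, 13.4% had a log2 fold change at least as high, and 17.0% with the correction. The profiles over the 6 libraries most like that of *HLA-E* were those of *NDUFA2*, *TSNARE1*, and *PACSIN2*, at root mean square distances in centred log2 CPM (counts scaled to the library total) of 0.0237, 0.0238, and 0.029. They were the nearest of 11866 genes averaging 100 counts or more, of which 523 lay within 0.1.

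The light chain gene was slightly lower in GFI1-KO, a direction that turned with the GC and length correction. *B2M* (ENSG00000166710, chr15:44711487-44718877, plus strand) had 20201, 18571, and 19216 counts in WT and 20523, 20385, and 20519 in GFI1-KO. Scaled for library size, it went from 20469 ± 268 to 19396 ± 140 normalized counts (SD, n = 3), and the KO libraries lay below the WT libraries. The log2 fold change was -0.08 (SE 0.03, edgeR adjusted p = 0.0214), and it turned to 0.42 with the GC and length correction (edgeR adjusted p = 4.4e-12). At 38.9%, *B2M* had the lowest GC content of the 9 genes. The call was lost at an unchanged sign without WT replicate 1 (edgeR adjusted p = 0.0559), without GFI1-KO replicate 2 (0.0662), or without GFI1-KO replicate 3 (0.0952), and without a filter on low counts (0.0792). The direction of *B2M* therefore depended on the correction, unlike that of *HLA-B* and *HLA-E*. Per length, the ratio of *HLA-B* to *B2M* was 1.40 ± 0.0785 in WT and 2.18 ± 0.0605 in GFI1-KO. This was a difference of 0.65 on the log2 scale without the correction and -0.06 with it.

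The subunit genes of the peptide transporter were called in opposite directions, though *TAP2* lost its call in several fits. *TAP1* (ENSG00000168394, chr6:32845209-32853978, minus strand) had 2676, 2454, and 2684 counts in WT and 4276, 4274, and 4379 in GFI1-KO. Its groups were far apart, and its log2 fold change was 0.57 (SE 0.03, edgeR adjusted p = 4.3e-14), or 0.17 with the GC and length correction (edgeR adjusted p = 1.2e-04). *TAP2* (ENSG00000204267, chr6:32821833-32838780, minus strand) had 693, 634, and 673 counts in WT and 670, 700, and 660 in GFI1-KO. Its raw counts overlapped, but its normalized counts, 706 ± 3.89 and 641 ± 21.2 (SD, n = 3), did not.

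The log2 fold change of *TAP2* was -0.14 (SE 0.06, edgeR adjusted p = 0.0336). The call was lost with DESeq2 (adjusted p = 0.0738), with the GC and length correction (-0.04, edgeR adjusted p = 0.585), without a filter on low counts (edgeR adjusted p = 0.107), and without WT replicate 1 (0.0653), GFI1-KO replicate 1 (0.0818), or GFI1-KO replicate 3 (0.144). In addition, 18.5% of the 50-base transcript words of *TAP2* are shared with other genes, mostly a read-through gene on the same strand that has 0 counts in every library, so its count is uncertain. The ratio of *TAP1* to *TAP2* per length was 5.14, 5.15, and 5.30 in WT and 8.49, 8.12, and 8.82 in GFI1-KO. The difference of this ratio was 0.71 on the log2 scale, and 0.21 with the correction. *TAPBP* (ENSG00000231925, chr6:33299694-33314387, minus strand), the tapasin gene, had 1858, 1767, and 1794 counts in WT and 2936, 3099, and 3157 in GFI1-KO, without overlap. It rose by 0.60 on the log2 scale (SE 0.04, edgeR adjusted p = 1.3e-13; 0.22 with the correction, edgeR adjusted p = 5.4e-06).

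Both immunoproteasome genes were higher in GFI1-KO. *PSMB8* (ENSG00000204264, chr6:32840717-32844703, minus strand) had 1634, 1415, and 1748 counts in WT and 2373, 2428, and 2316 in GFI1-KO. The WT libraries spread more than the KO libraries, and the log2 fold change was 0.41 (SE 0.05, edgeR adjusted p = 1.2e-08), or 0.11 with the GC and length correction (edgeR adjusted p = 0.0448). *PSMB9* (ENSG00000240065, chr6:32844136-32859585, plus strand) had 975, 918, and 985 counts in WT and 1896, 1933, and 1796 in GFI1-KO. The KO libraries lay far above the WT libraries, and the log2 fold change was 0.81 (SE 0.05, edgeR adjusted p = 1.7e-14), or 1.75-fold.

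The correction hardly moved *PSMB9*, to 0.82 (edgeR adjusted p = 4.6e-14). Under the correction it was the highest of the 9 genes, and 8.54% of all tested genes had a log2 fold change at least as high. *TAP1*, *PSMB8*, and *PSMB9* overlap each other or the antisense gene *PSMB8-AS1*, which had 38 to 68 counts per library, and the strand setting of the counting is not given in the sources used here. Reads from overlapping genes on opposite strands may therefore be in these counts.

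**Figure D2:**
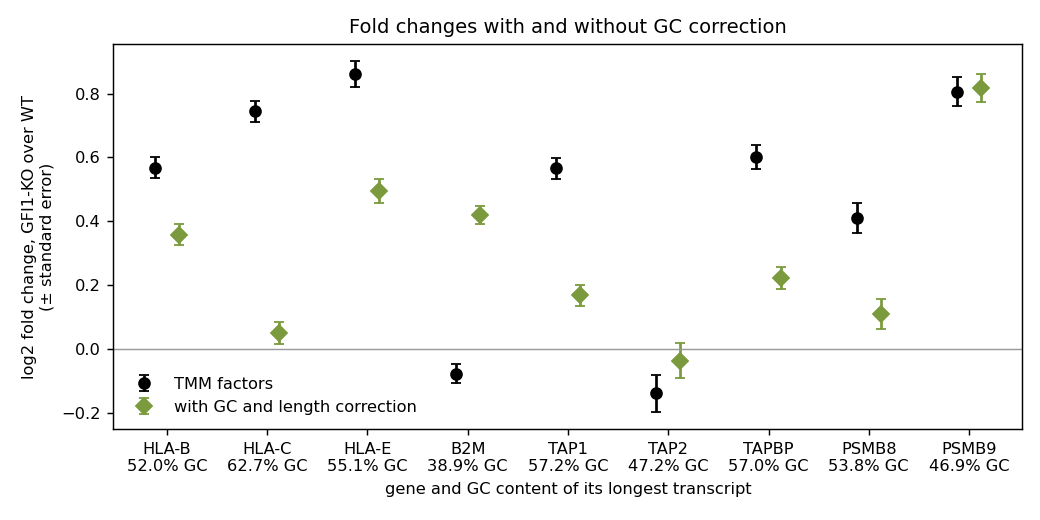
Log2 fold changes, GFI1-KO over WT, with standard errors (y axis) for the 9 genes, from the edgeR fit on TMM factors (circles) and with GC and length correction (diamonds), with the GC content of each gene's longest transcript on the x axis labels. *HLA-C*, with 62.7% GC, moved from 0.74 to 0.05, *B2M*, with 38.9% GC, from -0.08 to 0.42, and *PSMB9*, with 46.9% GC, from 0.81 to 0.82.

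Across the 17415 tested genes with a known GC content, the log2 fold change rose with GC content (Spearman's rho 0.574, given as a description since genes share their libraries). With the correction rho was 0.0254. The 9 genes had a median GC content of 53.8%, against 48.2% for all tested genes. Whether the trend came from library preparation or from the cells was not tested.

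The inducible subunits replace fixed partners in the proteasome core, so each was also set against its constitutive counterpart within the same library, as a ratio of FPKM (CPM per kilobase of the deposited gene length). *PSMB8* to *PSMB5* was 0.444 ± 0.0181 in WT and 0.436 ± 0.0129 in GFI1-KO (SD, n = 3). These groups overlapped, and the difference was -0.03 on the log2 scale (exact permutation test, two-sided p = 0.7, adjusted p = 0.7 over 3 ratios). Leaving out 1 library moved that difference between -0.06 and 0.00. *PSMB5* itself was higher by 0.44 (SE 0.04, edgeR adjusted p = 6.4e-10; 0.19 with the correction). *PSMB9* to *PSMB6* was 0.304, 0.329, and 0.308 in WT and 0.484, 0.456, and 0.454 in GFI1-KO. The groups did not overlap, the ratio was 1.48 times as high in GFI1-KO, and the exact permutation test gave two-sided p = 0.1 (adjusted p = 0.15), where 0.1 is the smallest p that 3 against 3 allows.

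*PSMB10*, which encodes the third inducible subunit, was scarce, with 37, 17, and 42 counts in WT and 143, 122, and 138 in GFI1-KO. Its log2 fold change was 1.91 (SE 0.21, edgeR adjusted p = 5.1e-09; 1.24 with the correction), but 30.8% of its 50-base words are shared with another gene, so its count is uncertain. *PSMB10* to *PSMB7* was 0.0156 ± 0.00548 in WT and 0.0452 ± 0.00412 in GFI1-KO (SD, n = 3), without overlap (exact permutation test, two-sided p = 0.1, adjusted p = 0.15). The log2 differences with the GC and length correction were -0.08 for *PSMB8* to *PSMB5*, 0.94 for *PSMB9* to *PSMB6*, and 1.06 for *PSMB10* to *PSMB7*.

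Levels of different genes were compared per length, as FPKM. In WT the order was *HLA-B* with 285 ± 12.4 FPKM, *B2M* with 204 ± 2.60, *HLA-C* with 187 ± 1.97, *HLA-E* with 39.2 ± 2.04, *TAP1* with 34.8 ± 0.674, *PSMB8* with 34.2 ± 2.74, *TAPBP* with 23.0 ± 0.455, *PSMB9* with 20.1 ± 0.361, and *TAP2* with 6.70 ± 0.0348 (SD, n = 3). Of the neighbours in this order, *TAP1* and *PSMB8* did not differ beyond their spread. In GFI1-KO, *HLA-C* with 310 ± 14.3 FPKM stood above *B2M* with 191 ± 1.23, and *PSMB9* with 34.7 ± 1.46 and *TAPBP* with 34.4 ± 1.12 did not differ beyond their spread (SD, n = 3). *TAP2* was the scarcest member in both groups, at 6.02 ± 0.198 FPKM in GFI1-KO. The order depends on the length used, which for *B2M* was 6079 bases as deposited. With the longest annotated transcript as length, *B2M* came first in both groups, with 533 ± 6.78 FPKM in WT and 499.7 ± 3.22 in GFI1-KO (SD, n = 3). By that length *HLA-C* with 414 ± 19.1 FPKM also stood above *HLA-B* with 359.5 ± 8.07 in GFI1-KO, and *TAP1* with 59.9 ± 1.16 above *HLA-E* with 45.7 ± 2.38 in WT (SD, n = 3).

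**Figure D3:**
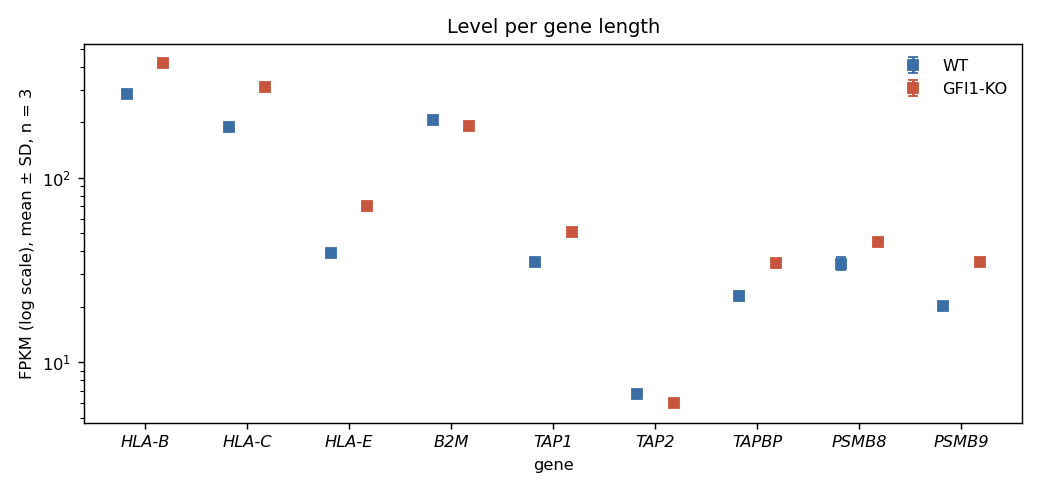
Level of each of the 9 genes per gene length (y axis: FPKM on a log scale) in WT and GFI1-KO (squares: mean, bars: SD, n = 3; some bars are smaller than the square). *HLA-B*, *HLA-C*, and *B2M* lie above 100 FPKM and *TAP2* below 10 in both groups.

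The other genes of the pathway were taken as 5 lists with 81 genes, and 37 of the 77 tested rose while 29 fell, at a median log2 fold change of 0.14 (42 higher and 17 lower with the GC and length correction). These counts and those of each list below stand against 36.5% higher and 35.9% lower among all tested genes, and nothing particular to a list is read from them. Of the 11 other class I and class I-like heavy chains, 6 of the 8 tested rose and none fell, at a median of 0.55 (6 higher and 1 lower with the correction). *HLA-F*, a nonclassical heavy chain, was higher by 1.06 (SE 0.06, edgeR adjusted p = 6.1e-15; 0.66 with the correction), and *MICA*, a stress-induced ligand of the NK receptor NKG2D, by 1.82 (SE 0.20, edgeR adjusted p = 4.6e-09; 1.44 with the correction), from 30, 29, and 26 counts to 96, 128, and 112. Of the 11 other loading and trimming genes, 4 rose and 6 fell, at a median of -0.08 (7 higher, 1 lower, and 0.14 with the correction).

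*CALR*, the chaperone calreticulin, was higher by 0.76 (SE 0.03, edgeR adjusted p = 3.1e-17; 0.46 with the correction) and the tapasin-related *TAPBPL* by 0.54, the latter not called with the correction (0.05). The peptidase genes *ERAP1* (-0.18), *ERAP2* (-0.46), and *NPEPPS* (-0.40) were lower, but with the correction *ERAP1* (0.30) and *NPEPPS* (0.14) turned and *ERAP2* (-0.02) was not called. The count of *NPEPPS* is uncertain, as 11.9% of its 50-base words are shared with other genes. Of the 20 other proteasome genes, 9 rose and 7 fell, at a median of 0.06 (11 higher and 7 lower with the correction). Besides *PSMB10* these included *PSME2*, an interferon-inducible activator subunit, higher by 0.56 (corrected 0.40), and the activator *PSME4* (-0.95, corrected -0.58) and the core subunit *PSMA3* (-0.73, corrected -0.25), both lower. Of the 5 activator or assembly genes in this list, only *PSME2* rose and 4 fell (2 higher and 3 lower with the correction).

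Of the 31 class I regulators, 13 rose and 14 fell, at a median of -0.01 (15 higher and 5 lower with the GC and length correction). *NLRC5*, the class I transactivator, had 1525, 1552, and 1532 counts in WT and 2030, 2105, and 2076 in GFI1-KO. Its log2 fold change of 0.27 (SE 0.04, edgeR adjusted p = 2.8e-06) turned to -0.10 with the correction (edgeR adjusted p = 0.031). *IRF1*, an interferon-induced activator of class I promoters, had 390, 330, and 376 counts in WT and 671, 722, and 670 in GFI1-KO. It rose by 0.75 on the log2 scale (SE 0.07, edgeR adjusted p = 1.5e-10; 0.63 with the correction).

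Of the named regulators at the ends of the list, the signalling inhibitor *SOCS3* (1.09, corrected 0.49) and *RFXANK* (1.02, corrected 0.40), a subunit of the factor that binds the X box, were higher. The Y box factor subunit *NFYB* (-0.86, corrected -0.27) and the class II transactivator *CIITA* (-0.64, corrected -0.72) were lower. *CIITA* shares 10.7% of its words with other genes and is uncertain. Among 8 genes of class I turnover, 7 were tested, with 5 higher and 2 lower (3 and 3 with the correction). They included the ubiquitin ligase genes *STUB1* (1.07, corrected 0.30) and *MARCHF9* (-0.20, corrected -0.72), and *TMEM127* (0.39, corrected 0.20) and *IRGQ* (-0.55, corrected -0.65).

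Of the 9 genes, 8 lie on chromosome 6 within 2.82 Mb between the start of *HLA-E* and the end of *TAPBP*. In this stretch, members apart, 64 of 91 tested genes (70.3%) rose and 7 (7.69%) fell, and the median log2 fold change was 0.49. On the rest of chromosome 6, 200 of 750 tested genes (26.7%) rose and 333 (44.4%) fell, and the median was -0.19. With the GC and length correction 44 of the 91 neighbours (48.4%) rose and 14 (15.4%) fell, at a median of 0.18, against 238 of 750 (31.7%) and 215 (28.7%) and a median of 0.01. The neighbours had a median GC content of 55.0%, near the 53.8% of the 9 genes, and the rest of chromosome 6 had 44.6%. The members on chromosome 6, *TAP2* apart, were thus higher among neighbours that were mostly higher as well without the correction.

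The nearest tested protein-coding neighbours of *HLA-C* and *HLA-B* were *TCF19*, with a log2 fold change of 0.72 (corrected 0.46), and *MICA*, with 1.82 (corrected 1.44). Those of *HLA-E* were *RPP21* (1.59, corrected 1.27) and *GNL1* (0.72, corrected 0.74). Those of *TAPBP* were *RGL2* (0.94, corrected 0.44) and *ZBTB22* (1.56, corrected 0.95). The cluster of *TAP2*, *PSMB8*, *PSMB9*, and *TAP1* lies between the class II genes *HLA-DRA* and *HLA-DMB*. *HLA-DRA* had 35, 45, and 35 counts in WT and 3, 4, and 6 in GFI1-KO, for a fitted log2 difference of -3.27 (SE 0.38, edgeR adjusted p = 2.0e-08). *HLA-DMB* moved the other way, from 12, 9, and 19 counts to 43, 58, and 53 (1.78, SE 0.29, edgeR adjusted p = 5.0e-06).

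Libraries held between 14882914 and 17692882 counts, so that 3 counts, taken as the lowest level that a library can show, equal 0.170 to 0.202 CPM, and the 9 genes took 3189 ± 38.6 CPM in WT and 4125 ± 36.0 in GFI1-KO (SD, n = 3). Of 14 leukocyte marker genes, 12 had fewer than 10 counts in every library, 4 of them none, and the 1 tested was not called (lower with the correction). The list summed to 80.8 to 94.5 normalized counts in WT and 77.2 to 87.2 in GFI1-KO. *PTPRC*, which encodes the pan-leukocyte protein CD45, had 3 counts in 1 WT library and 0 in the other 5. Of 11 class II genes, also markers of antigen-presenting cells, 6 were tested, with 1 higher and 3 lower, among them *CD74* with -3.49.

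Of 12 neuroendocrine markers, 6 were higher, among them *SYP* (1.21) and *SCG2* (1.17), and 6 lower, among them *DDC* (-3.26). Of 9 fibroblast and endothelial markers, 6 were tested, with *COL3A1* higher (5.75) and 4 lower, among them *PDGFRB* (-3.24) and *PECAM1* (-1.12). *COL3A1* had 2, 3, and 2 counts in WT, at or below the floor of 3 counts, and 129, 143, and 170 in GFI1-KO. The size of its fold change is therefore uncertain. The part of these marker changes in the class I results was not tested, and in such bulk RNA fewer expressing cells and less RNA per cell cannot be told apart.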

How the data were processed

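RNA from 3 WT and 3 GFI1-KO H1155 libraries was measured by RNA-Seq. The authors deposited raw counts per gene, with gene length, start, and end in bases as other values. Per the study's methods, the authors captured mRNA on poly-T beads, sequenced it on a NovaSeq, aligned reads to hg38 with Hisat2, and counted them with featureCounts, whereas the submitters' processing notes list Bowtie2 and HTSeq. The counting annotation, strand setting, and treatment of multi-gene reads are not given in the sources used here.

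The counts were tested with edgeR 4.0.16 (R 4.3.3; TMM, filterByExpr, quasi-likelihood F test with Benjamini-Hochberg adjustment over 17514 genes). A log2 fold change is GFI1-KO over WT, and its SE is its size over the square root of F. Normalized counts were scaled to the mean effective library size. The GC and length correction used spline offsets (5 degrees of freedom) per library. They were fitted on the GC content of the longest GENCODE 44 transcript and on the deposited gene length. A count was called uncertain where over 10% of a gene's 50-base transcript words occurred in other genes. Ratios were tested by exact permutation, two-sided. The fits were tested on simulated data with and without a GC trend. Without a trend or a correction, 68.0% of genes changed by 0.5 on the log2 scale were recovered. Of those changed by 1.0, 83.5% were recovered, and 3.29% of the 152 calls were unchanged genes. The outcomes with a GC trend are not reported here.

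Alternatives were DESeq2 1.42.0, limma-voom 3.58.1, upper-quartile and median-of-ratios factors, unscaled library size, other filters, the replicate number as a block, the GC and length correction with and without it, summed heavy chains, another gene length, an adjusted p of at most 0.01, and each library left out. The members, lists, tests, and alternatives were chosen with earlier results of these data known. Named were all 9 members, GFI1, PSMB10, PSMB5, PSMB6, PSMB7, NLRC5, IRF1, CALR, ERAP1, HLA-F, the 2 highest and 2 lowest called genes of each list with a mean of at least 10 counts, the neighbours of each member, and the 3 nearest profiles; PTPRC and PSMB8-AS1 were named after their values were seen. Some genes that this rule names are not reported here.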

Additional observations from a re-analysis of the deposited data

How the results depend on the processing

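Of the 9 members, 6 (HLA-B, HLA-E, TAP1, TAPBP, PSMB8, and PSMB9) kept their direction and an adjusted p of at most 0.05 under each alternative fit run, and HLA-C lost its call under the GC and length correction alone (0.05) and with the replicate block (0.05). The number of members called lower, 2, was 0 without a filter, 1 with DESeq2, 0 with the GC and length correction with or without the block, 0 at a threshold of 0.01, and 0 to 2 with 1 library left out. B2M reversed to 0.42 with the GC and length correction, and also to 0.42 when the block was added. The correction gave 17 other pathway genes lower (17 with the block) and 14 MHC region neighbours lower (14 with the block). The cause of these moves was not tested. The log2 fold change of GFI1 was 0.27 with upper-quartile factors (adjusted p = 0.0545), 0.31 with DESeq2 (0.072), 0.17 with the GC and length correction (0.231), 0.18 with the block added (0.234), and 0.21 to 0.43 with 1 library left out, and it fell short of the threshold without WT replicate 2, WT replicate 3, or GFI1-KO replicate 2.

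With the longest annotated transcript as length, WT levels were 245 FPKM for HLA-B, 249.8 for HLA-C, 45.7 for HLA-E, 533 for B2M, 59.9 for TAP1, 6.92 for TAP2, 28.1 for TAPBP, 43.3 for PSMB8, and 23.0 for PSMB9, since this length differs from the deposited one. Replicate numbers did not pair the libraries: deviations from the group means correlated at -0.003, 0.017, and 0.023 between same-numbered libraries and at -0.052 to 0.042 between others. With the replicate block alone, no call of a member was lost (adjusted p = 0.0293 for B2M and 0.0439 for TAP2).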
